A study of Gallus gallus with 6 samples.

Results

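K11-5 cells, labelled as a complete null for histone H1, were compared with wild type DT40 cells, a chicken B cell line, on Affymetrix chicken expression arrays. The comparison covered 38382 of the 38535 deposited probe sets, because the 96 AFFX control probe sets and the 57 reporter probe sets were left out. It used 4 of the 6 arrays, 2 of K11-5 and 2 of wild type. The other 2 arrays held K11 cells, labelled as a knock out of the endogenous H1, and entered the model only for the shared estimate of spread and for a test of whether a change also separated K11-5 from K11. Total RNA came from exponentially growing cultures at 39.5 °C. Every culture, wild type included, had received 100 nM of Z-VAD-FMK, an inhibitor of caspases as a class, since the loss of H1 induces apoptosis according to the series' design text. The sources used here do not say how K11-5 differs from K11 in construction or whether each line is 1 clone. No label ties the 2 arrays of a line to 2 cultures. The p-values therefore measure only how far these arrays scatter, which may be technical.

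Linker histone H1 binds the nucleosome where the DNA enters and leaves it and helps nucleosome arrays to fold into compact chromatin. Vertebrate genomes carry several H1 genes whose products can stand in for each other, so a null cell must lack all of them. DT40 cells derive from a lymphoma of the bursa of Fabricius, the organ in which birds make B cells, and are widely used for gene targeting. They express surface immunoglobulin and diversify their immunoglobulin light chain gene in culture.

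Deposited signals had trimmed means from 48.0 to 77.8 over the 6 arrays, and the normalized log2 signals of the K11-5 arrays correlated across probe sets with r = 0.936, against 0.952 for wild type; probe sets are not independent replicates. The 3' actin control probe set, read against its 5' counterpart as a gauge of intact RNA, gave ratios of 6.29 and 5.28 in K11-5 against 8.10 and 7.15 in wild type. The same ratio for GAPDH was 0.914 and 0.798 against 0.892 and 0.917, and did not separate the groups. Its part in the results was not tested. The B cell label was checked against 9 defining B cell markers on the array, whose summed normalized intensity was 4368 to 5793 in the wild type arrays and 524 to 1907 in the K11-5 arrays. CD79B, CD74 and POU2AF1 carried most of the sum. On their brightest probe sets, CD74 and POU2AF1 did not pass an adjusted p of 0.05 (limma, adjusted p = 0.158 and 0.0866). PAX5, the transcription factor of B cell identity, lay at 7.72 and 3.76 in wild type and 11.4 and 29.1 in K11-5 on its brightest probe set (adjusted p = 0.243). A background of 11.4, the 95th percentile of 23 control probe sets, was chosen after the values were seen. Summed markers of other cell types ran from 1242 to 1292 in wild type and from 305 to 498 in K11-5 for T cells, where CD3D carried most of the sum. They ran from 34.2 to 71.7 and 47.2 to 93.4 for myeloid cells, from 49.4 to 55.7 and 59.4 to 75.7 for fibroblasts, and from 4.24 to 8.69 and 1.0305 to 13.8 for the erythroid gene HBAD. Neuronal markers summed to 1475 to 1501 and 2643 to 2691, nearly all of it STMN2. Of the 9 B cell markers, 7 exceeded background in both wild type arrays and 6 in both K11-5 arrays. Of the other markers on the array, 4 of 8 T cell markers, 1 of 5 myeloid markers and 1 of 6 fibroblast markers exceeded background in both wild type arrays, and the same numbers did so in both K11-5 arrays. Of 6 neuronal markers, 1 in both wild type arrays and 2 in both K11-5 arrays exceeded background. CD3D, CD247, CD8A, CD5 and the myeloid receptor CSF1R were above it in all 6 arrays, whereas CD3E, CD4, LCK, LYZ, DCN, LUM and PDGFRA were below it in all 6. A probe set of the collagen COL1A2 was higher in K11-5, at 23.3 and 23.5 against 0.529 and 2.91 (adjusted p = 0.0299). The other tested probe sets of COL1A2 did not pass (limma, adjusted p = 0.823 and 0.419). COL1A1, another collagen, lay the other way, at 0.649 and 7.30 in K11-5 against 20.8 and 13.8 in wild type (adjusted p = 0.221). What part other cells had in the results was not tested.

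The linker histone genes come first, because the groups are named for them. The brighter H1 gene, HIST1H111L, stood at normalized intensities of 4793 and 4442 in K11-5 against 1642 and 2185 in wild type, with 5810 and 1597 for the K11 line. Both K11-5 arrays lay above both wild type arrays, with a log2 difference of 1.28 ± 0.44 (SE), which did not pass the threshold (adjusted p = 0.130). HIST1H111R, a second H1 gene, was dim, at 9.17 and 1.17 in wild type and 34.7 and 16.8 in K11-5, with a log2 difference of 2.14 ± 0.63 (adjusted p = 0.0837). The sources used here do not place these probe sets against any deletion, so they do not check the label. Core histones, which form the nucleosome itself, are counted in families because their probe sets match several near-identical genes: 5 of 9 tested probe sets rose and 1 fell, against 2.63% and 2.91% of all probe sets. Their median log2 difference was 0.99. The rises were 1 probe set of H4, 2 of H3 and 2 of H2B, and the fall was the other H4 probe set, so the count covers few families.

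Of the 23029 probe sets bright enough to be tested, 606 were higher and 670 were lower in K11-5 at an adjusted p under 0.05, or 2.63% and 2.91%, together 1276 and 5.54%. Counted as genes with 1 probe set each, 359 of 9999 were higher (3.59%) and 366 lower (3.66%), together 7.25%, and these shares are the background for every gene list below. The split depended on the scaling: on the deposited scale, without normalization between arrays, 308 were higher and 823 lower, so that 27.2% of the calls were rises in place of 47.5%, and the median log2 difference over the genes moved from 0.03 to -0.10. Without limma's intensity trend in the prior variance only 6 were higher and 12 lower, with 3745 at an unadjusted p under 0.05. The counts also depended on single arrays. Leaving out wild type replicate 1 gave 222 higher and 156 lower, and leaving out wild type replicate 2 gave 94 and 58. Leaving out K11-5 replicate 1 gave 284 and 401, and leaving out K11-5 replicate 2 gave 118 and 189. With 2 arrays a group mainly large fitted differences can pass, so the sizes of the called changes partly reflect the threshold. The median log2 difference was 1.32 among the rises and -1.40 among the falls, 162 rises and 186 falls exceeded 2, and 23 rises and 28 falls exceeded 4. The K11-5 arrays did not overlap the wild type arrays in 53.3% of all tested probe sets. In 90 of the falls, or 13.4%, the signal lay above background in both wild type arrays and below it in both K11-5 arrays, and 83 of the rises, or 13.7%, showed the reverse. Of the 829 genes named by the called probe sets, 517 had several tested probe sets; in 438 of these all had the same sign, in 92 all were called, and in 1 gene a probe set rose while another fell.

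**Figure D1:**
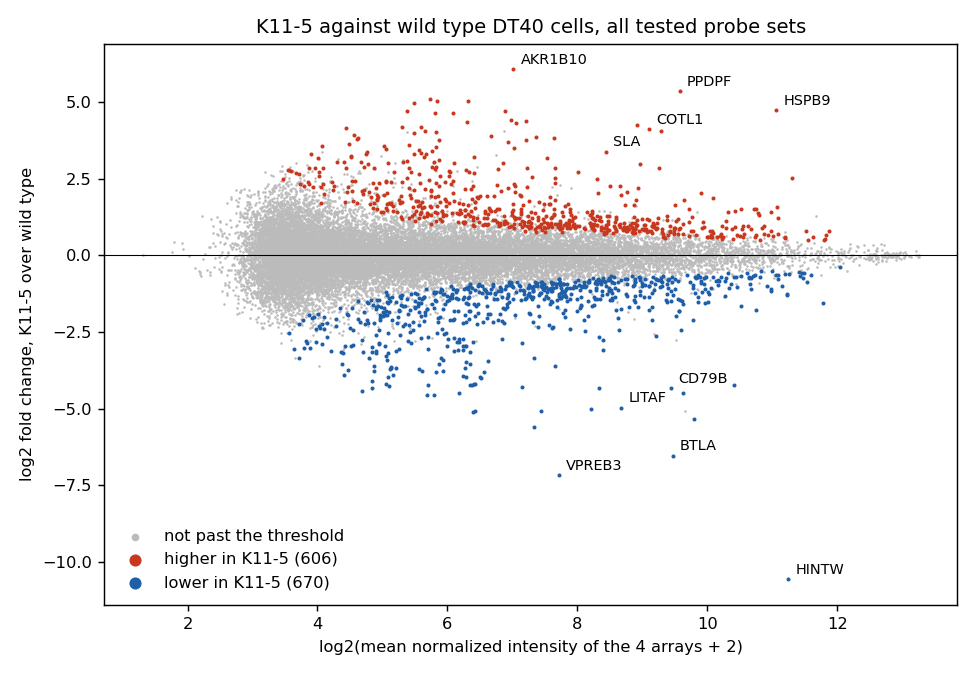
Each point is a probe set, with its mean normalized intensity over the K11-5 and wild type arrays on the x axis (log2 with 2 added) and the log2 fold change of K11-5 over wild type on the y axis. The 606 probe sets called higher are red and the 670 called lower are blue; HINTW lies lowest at a fitted -10.56 and AKR1B10 highest at a fitted 6.06, each with 1 group below background.

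The 30 genes with the largest rises ranged from 3.08 to 6.06 on the log2 scale, and 21 of them had a wild type mean below background. For such genes the fold is given as a lower bound against background, written "at least", and their fitted sizes set no reliable order. AKR1B10, an aldo-keto reductase that reduces aldehydes including retinal, had intensities of 0.880 and 0.423 in wild type and 68.4 and 438.8 in K11-5, a rise of at least 13.2-fold (adjusted p = 0.00252). Without K11-5 replicate 2 it no longer passed (adjusted p = 0.0668). SULT1E1, the sulfotransferase that inactivates estrogen, went from 0.476 and 0.687 to 53.9 and 116.0, at least 6.07-fold. ALDH1A3, which makes retinoic acid from retinal, rose at least 5.47-fold. These 3 enzymes of small molecule metabolism were joined by GDA, the guanine deaminase, at least 2.70-fold higher. PPDPF, named in zebrafish for a role in pancreas progenitors, had 29.99 and 17.4 in wild type and 394.7 and 2597 in K11-5, a 40.8-fold rise with the second K11-5 array far above the first.

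Several of the largest rises were in membrane receptors and adhesion molecules. The genes CHIR-B6, CHIR-B3 and CHIR-IG1-5 stood among them. The CHIR family holds activating and inhibitory immunoglobulin-like receptors of chicken leukocytes whose members are so similar that a probe set can detect relatives. CHIR-B6 had 4.29 and 1.64 in wild type and 60.2 and 118.2 in K11-5, CHIR-B3 had 24.4 and 8.79 against 116.7 and 431.9, and CHIR-IG1-5 had 26.7 and 2.38 against 125.3 and 431.5. Replicate 2 was the higher K11-5 array in all 3. Of 4 tested CHIR genes, a list drawn up after the values were seen, 3 rose; without K11-5 replicate 2 none was called, and without wild type replicate 2, 1 was. IL13RA1, a receptor subunit for interleukin 13, went from 2.44 and 1.0999 to 107.1 and 39.6, at least 5.04-fold (adjusted p = 0.00120). CDH8, a cadherin, had 0.118 and 5.51 in wild type and 22.9 and 439.1 in K11-5, a rise of at least 7.84-fold. Its call was lost when K11-5 replicate 2 (adjusted p = 0.201), wild type replicate 1 (0.195) or wild type replicate 2 (0.0795) was left out. Another CDH8 probe set also passed (limma, adjusted p = 0.0444). A further one had 28.0 and 5.73 in wild type and 15.9 and 27.3 in K11-5, and did not pass (limma, adjusted p = 0.667). PCDHGA2, a protocadherin, and SEMA3C, a secreted guidance protein, rose at least 3.55-fold and 3.05-fold.

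The other large rises had varied roles. SLA, an adaptor that dampens antigen receptor signalling, had 55.6 and 59.8 in wild type and 770.0 and 498.0 in K11-5, a 10.4-fold rise, and its other 2 tested probe sets rose too. HSPA12A, a distant relative of Hsp70, went from 2.00 and 0.860 to 109.9 and 107.8, at least 8.29-fold, with adjusted p = 6.39e-05. HSPB9, of the small heat shock proteins, reached 3711 and 4491 from 236.5 and 95.8. NFIB, a nuclear factor I transcription factor, and MYCN, of the MYC family, rose at least 7.89-fold and 3.56-fold from wild type signals below background. The other 2 tested probe sets of NFIB (limma, adjusted p = 0.0960 and 0.142) and the other 1 of MYCN (0.355) did not pass. With 1 array left out, the log2 rise ran from 3.65 to 5.65 for NFIB and from 2.29 to 4.36 for MYCN. COTL1, a coactosin that binds filamentous actin, had 55.3 and 55.2 in wild type and 726.2 and 1360 in K11-5, a 17.4-fold rise. CPNE8, a copine that binds phospholipid when calcium is present, went from 13.7 and 8.47 to 216.4 and 163.2, and all 4 of its tested probe sets rose, by 3.21 to 4.41 on the log2 scale. DCX, a microtubule protein of migrating neurons, rose at least 5.42-fold on 1 of its 5 tested probe sets, while the other 4 did not pass (adjusted p from 0.0504 to 0.376). NEFL, NEFM, SNAP25 and SYT1, which define neurons, were at most 14.1 in every array, and STMN2, the bright member of that list, rose by 0.81.

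The 30 genes with the largest falls ranged from 3.66 to 10.56 on the log2 scale, and 23 of them lay below background in K11-5. The largest was HINTW, a gene of the W sex chromosome, which went from 4793 and 4934 to 0.746 and 1.77. Among the B cell genes, VPREB3, a protein related to the surrogate light chain, had 253.8 and 576.4 in wild type and 0.707 and 0.639 in K11-5, and POU2AF1, the coactivator of Oct factors in B cells, had 214.1 and 293.8 against 51.5 and 1.12. The brighter POU2AF1 probe set, at 1269 and 1543 against 425.3 and 2.02, did not pass (adjusted p = 0.0866), and the dimmer one lost its call when wild type replicate 1, wild type replicate 2 or K11-5 replicate 2 was left out (adjusted p = 0.126, 0.207 and 0.101). SAMSN1, an adaptor that restrains lymphocyte activation, had 147.9 and 119.3 against 32.2 and 1.34. Among metabolic genes, MTHFS, which returns formyltetrahydrofolate to the folate cycle, went from 286.4 and 386.9 to 7.27 and 8.54, at least 25.1-fold lower. FABP5, a fatty acid binding protein, went from 206.2 and 122.4 to 6.17 and 0.753, at least 12.04-fold lower. BLVRA, the biliverdin reductase that completes haem breakdown, was at least 11.97-fold lower, with 3 of its 4 tested probe sets called. ALDH2, the mitochondrial aldehyde dehydrogenase, and SLC22A5, the carnitine transporter, were at least 6.48-fold and 8.88-fold lower. Among genes of membrane traffic, LITAF, a late endosome protein, had 726.5 and 842.4 against 52.1 and 9.64, and AP1S3, a subunit of a clathrin adaptor and SNX7, a sorting nexin, were at least 12.1-fold and 9.30-fold lower. TVP23A, a Golgi protein, was at least 4.78-fold lower on 1 probe set, but its other probe set had 21.3 and 26.5 in wild type and 20.8 and 30.2 in K11-5 (adjusted p = 0.945), and the call was lost when either wild type array or K11-5 replicate 1 was left out (adjusted p = 0.188, 0.253 and 0.0741). BMERB1 had 511.1 and 632.7 in wild type and 14.4 and 17.4 in K11-5, with the 2 K11-5 arrays close together, and all 3 of its probe sets fell.

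**Figure D2:**
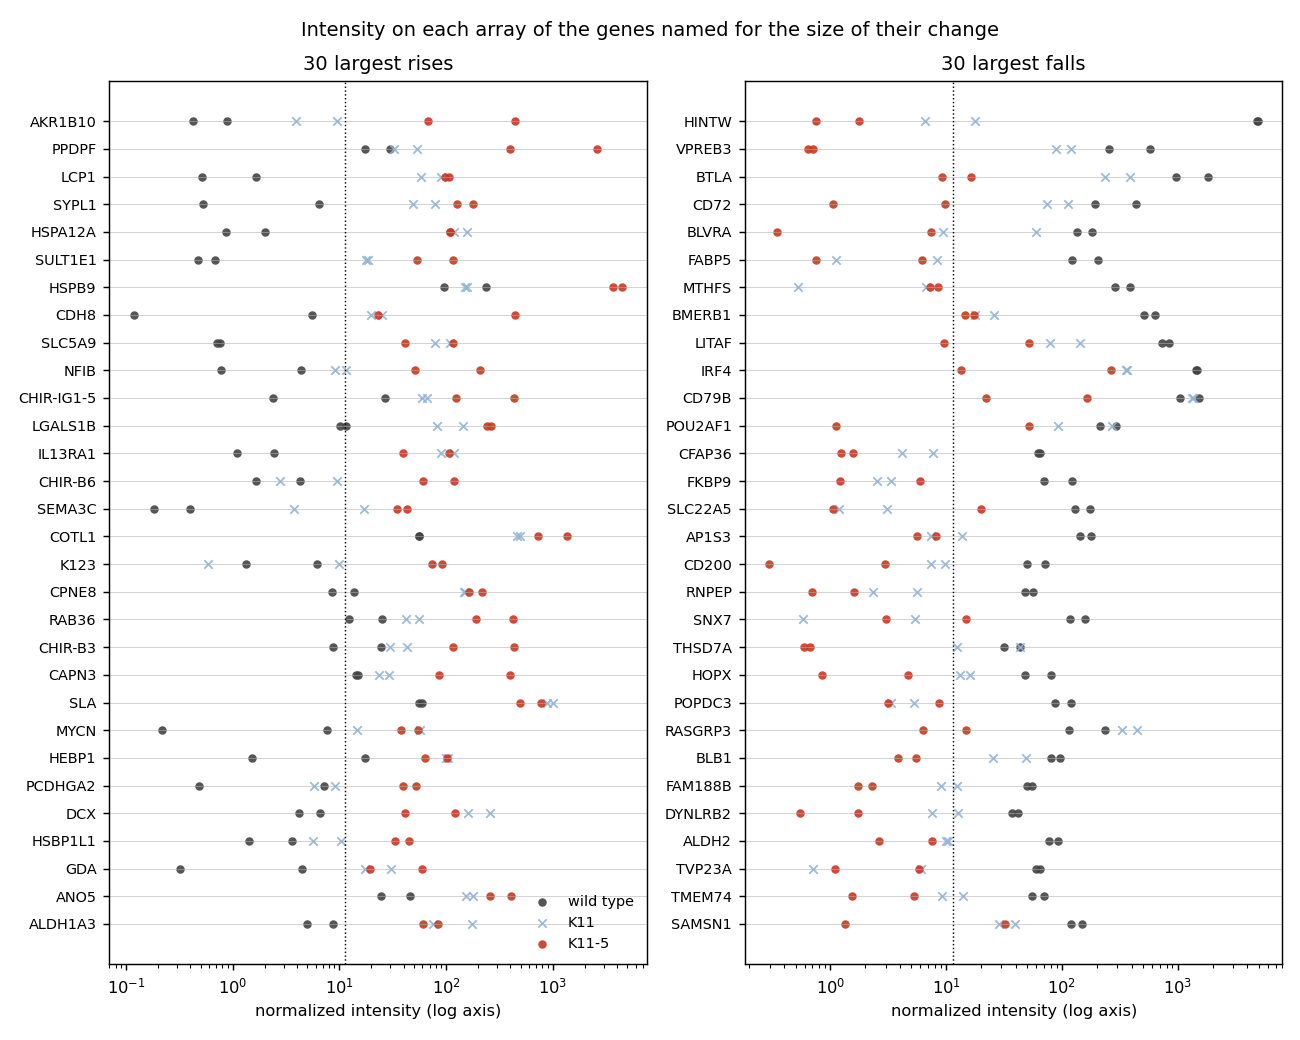
Normalized intensity on each array (log x axis) of the genes with the 30 largest rises and the 30 largest falls; dark circles are wild type arrays, red circles K11-5 arrays and blue crosses K11 arrays, and the dotted line is the background of 11.4. The red and dark circles never overlap, as the choice of genes required. Wide gaps between red circles mark CDH8, PPDPF, IRF4, POU2AF1, SAMSN1, BLVRA and SLC22A5, among others.

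Among the called probe sets, the K11-5 arrays differed from each other more in the falls than in the rises. In neither did they differ more than over all tested probe sets. The test that made the calls divides by this spread, which favours probe sets with small gaps. Over all tested probe sets the median gap between the K11-5 arrays was 0.34 on the log2 scale, against 0.28 between the wild type arrays. Among the probe sets that fell it was 0.30 in K11-5 and 0.22 in wild type, and the gap exceeded 1 in 98 of them, or 14.6%. Among those that rose it was 0.24 in K11-5 and 0.25 in wild type, with 46 over 1, or 7.59%. Over all tested probe sets that share was 15.6%. IRF4, which drives late B cell differentiation, had 264.2 in the first K11-5 array and 13.4 in the second, and its log2 fall was 2.44 without replicate 2 and 6.54 without replicate 1. All 60 genes kept their direction when any array was left out. The choice of genes whose K11-5 and wild type arrays did not overlap all but fixed this in advance. Leaving out wild type replicate 1 kept 27 of the 30 rises and 17 of the 30 falls, and leaving out wild type replicate 2 kept 20 and 10. Leaving out K11-5 replicate 1 kept 23 and 29, and leaving out K11-5 replicate 2 kept 18 and 27. Of the 60 genes, 33 had several tested probe sets, and in 32 of these they all had the same sign.

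Whether these changes also set K11-5 apart from K11 was tested in the same model, in which 2.98% of all tested probe sets differed between the 2 lines. Of the 30 rises, 9 were also higher in K11-5 than in K11, and of the 30 falls, 8 were also lower. HSPB9, at 151.9 and 157.4 in K11, was higher in K11-5 by 4.70 ± 0.33 (adjusted p = 0.000506). RASGRP3, an activator of Ras in B cells, was at 331.9 and 444.3 in K11, above its wild type values of 114.5 and 233.5, and at 15.0 and 6.30 in K11-5, a difference from K11 of -5.02 ± 0.40. By contrast LCP1, HSPA12A, SLC5A9, SLA, MTHFS, BMERB1 and FKBP9 had log2 differences between K11-5 and K11 from -0.59 to 1.08 that did not pass the threshold. The 60 genes were chosen on the same K11-5 arrays that this test uses, so these counts cannot be read against the share over all probe sets. Both lines also share the wild type arrays as their reference.

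Genes of the endoplasmic reticulum (ER), where secreted and membrane proteins are folded, were among those that fell in K11-5. Of 41 tested genes of ER folding and the unfolded protein response, 9 fell and none rose, against 3.66% and 3.59% of all genes, and their median log2 difference was -0.23 against 0.03 for all genes. The chaperone HSPA5, the ER's Hsp70, had 3809 and 3017 in wild type and 1217 and 1591 in K11-5, a fall of 1.28 ± 0.17 (adjusted p = 0.00319). HYOU1, another ER chaperone, had 722.9 and 647.5 against 290.1 and 322.0. The disulfide isomerases PDIA4 and PDIA6 and the related TXNDC5 fell by 1.53, 1.06 and 1.22. ERO1A, the oxidase that recharges them, had 500.5 and 295.0 in wild type and 90.4 and 55.4 in K11-5, a fall of 2.41 ± 0.32. DERL3, of the pathway that removes misfolded proteins, went from 479.2 and 405.0 to 87.3 and 114.7, a fall of 2.12 ± 0.22. It was the 1 gene of the 9 in which K11-5 also lay below K11 (209.0 and 261.5, adjusted p = 0.0212). HSP90B1, the ER's Hsp90, counted among the heat shock proteins, fell by 1.113.

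Genes of the steps around folding also fell. Of 66 tested genes of translocation into the ER, glycosylation and disulfide exchange, a list drawn up after the values were seen that shares members with the first, 16 fell and 1 rose, with a median of -0.24 over the list and -0.12 over its members away from the shifted chromosomes. SSR1 and TRAM1L1, at the translocation channel, had 2338 and 2114 against 1042 and 1023, and 1864 and 1671 against 737.1 and 675.7. STT3B and RPN1, subunits of the enzyme that attaches glycans, fell by 1.38 and 0.66, and ALG2, which builds the glycan, by 1.42. ERP44 and ERP29, thioredoxin-like proteins, fell by 1.25 and 1.18, and SPCS2 and SEC11C, of the signal peptidase, by 0.79 and 0.71. EMC8, of the membrane insertion complex, was the member that rose, by 0.61. Of 69 tested genes of ER-to-Golgi transport, also listed after the values were seen, 8 fell and 1 rose. The falls included SEC23B and SAR1B, of the COPII coat that buds from the ER, by 0.73 and 0.71, and TMED2, a cargo receptor, by 0.62, while TRAPPC10, of a tethering complex, rose by 1.28.

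Position and single arrays bear on these counts. Chromosomes 2, 10 and 24, whose genes were lower as a whole, carried 5 of the 9 falls of the first list and 9 of the 16 of the second; away from the 8 chromosomes that shifted, 4 of 28 and 7 of 42 tested genes fell. The first list had 5, 6, 7 and 7 falls, and the second 7, 4, 10 and 8, without wild type replicate 1, wild type replicate 2, K11-5 replicate 1 and K11-5 replicate 2. The ER-to-Golgi list had at most 1 fall when any of these was left out. On the deposited scale the medians of the first 2 lists lay 0.31 and 0.30 below that of all genes. The K11 line stood at 1056 and 884.2 for HSPA5, 448.8 and 458.7 for PDIA4, and 929.4 and 911.3 for SSR1, values from which K11-5 did not differ beyond the threshold.

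**Figure D3:**
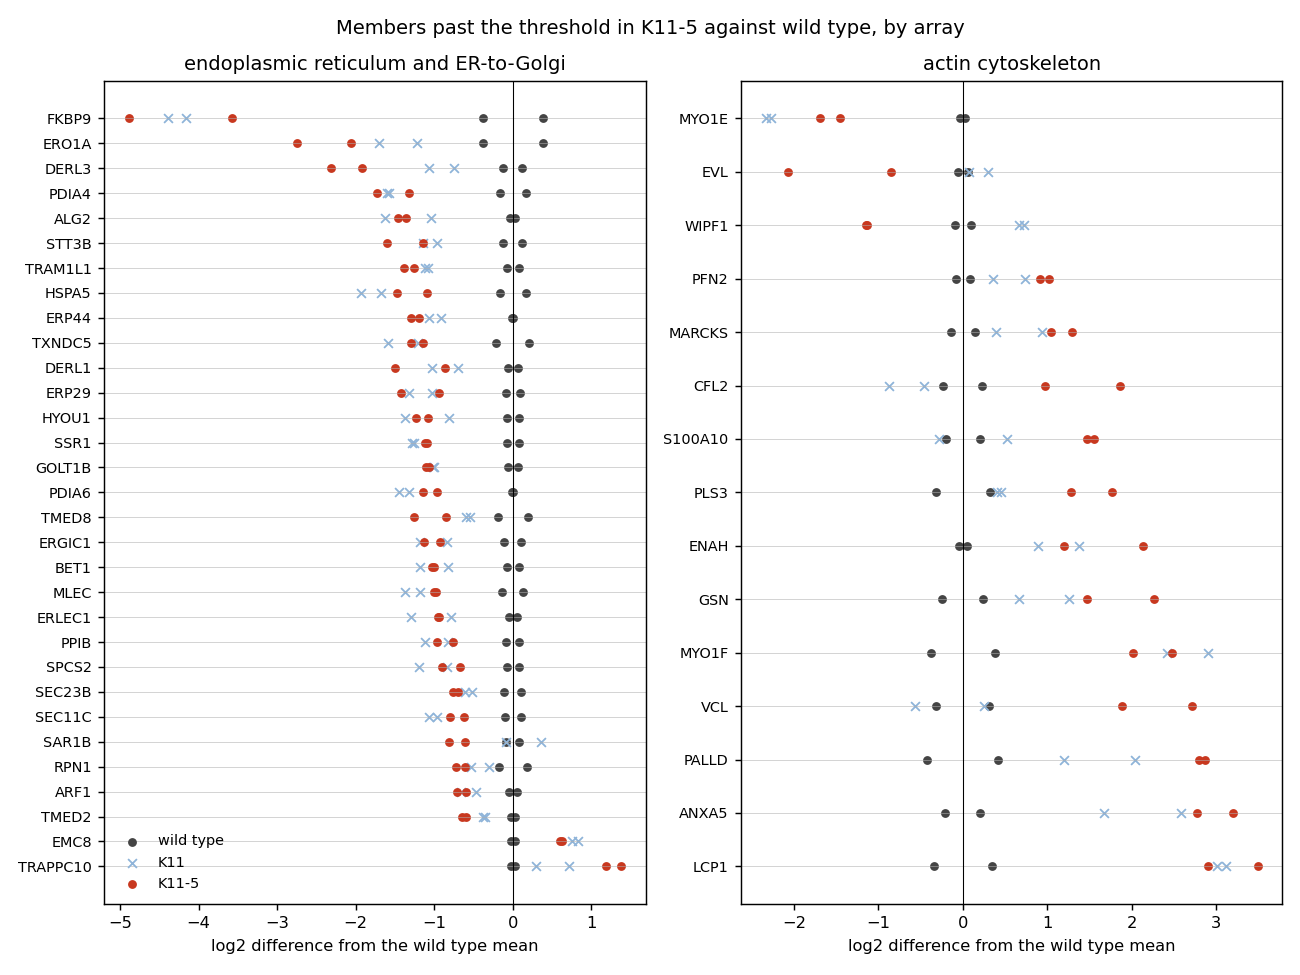
Log2 difference of each array from the wild type mean for the members that passed the threshold in the 3 lists of the endoplasmic reticulum and ER-to-Golgi transport (left) and in the actin list (right); dark circles are wild type, red circles K11-5 and blue crosses K11. On the left all but EMC8 and TRAPPC10 lie below 0 in K11-5; on the right 12 genes lie above 0 and MYO1E, EVL and WIPF1 below.

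Among actin cytoskeleton genes, more rose than fell. Of 86 tested genes, 12 rose (13.95%) and 3 fell, against 3.59% and 3.66% of all genes, and the median log2 difference was 0.29. Proteins that bundle or cap filaments were among the rises. LCP1, the plastin of blood cells that bundles filaments, had 18.8 and 10.9 in wild type and 120.0 and 181.9 in K11-5 on its brighter probe set, and PLS3, its relative outside blood, went from 147.8 and 94.4 to 289.8 and 406.9. GSN, gelsolin, which severs and caps filaments, rose by 1.87. Monomer and turnover proteins rose as well: PFN2, a profilin, from 762.7 and 854.0 to 1638 and 1520, and CFL2, a cofilin, by 1.41. VCL, vinculin of focal adhesions, had 41.9 and 26.4 in wild type and 128.7 and 229.8 in K11-5, and PALLD, palladin, 16.3 and 8.23 against 93.0 and 97.7. ENAH, which lengthens filaments at their tips, and MARCKS, which links actin to the membrane, rose by 1.67 and 1.17. ANXA5 and S100A10, of the annexin system at the membrane, rose by 2.99 ± 0.29 and 1.51 ± 0.23, and the myosin MYO1F by 2.25. The falls were MYO1E, a myosin, WIPF1, which binds the Wiskott-Aldrich protein, and EVL, a relative of ENAH found in blood cells.

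The rises in this list were spread over chromosomes: 10 of 69 tested genes rose away from the 8 shifted chromosomes, with a median of 0.37, and 2 of the 12 lay on a raised one. They numbered 6 without wild type replicate 1, 3 without wild type replicate 2, 12 without K11-5 replicate 1 and 3 without K11-5 replicate 2, and 10 on the deposited scale. The falls numbered 2 without K11-5 replicate 1 and none without any of the other 3. VCL, CFL2 and S100A10 were also higher in K11-5 than in K11 (adjusted p = 0.0125, 0.0104 and 0.0162), whereas LCP1, at 129.6 and 140.1 in K11, did not differ beyond the threshold (adjusted p = 0.877). WIPF1 and EVL were lower in K11-5 than in K11.

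Several B cell genes fell in K11-5, and those that fell were mostly lower in its second array. Of 39 tested genes of B cell receptor signalling, 8 fell (20.5%) and 2 rose (5.13%), against 3.66% and 3.59% of all genes. Their median log2 difference was -0.29. Earlier results of these data had drawn attention to this group, so its direction is not independent evidence. CD79B, a signal chain of the receptor, had 1051 and 1527 in wild type and 163.6 and 21.9 in K11-5. The protein kinase C genes PRKCB and PRKCD, downstream of the receptor, fell by 1.65 and 1.91, DAPP1, an adaptor, by 2.37, and VAV2, an exchange factor, was at least 2.83-fold lower. FYN and RASGRP1, a kinase and a Ras activator better known from T cells, rose by 1.52 and 1.30. Of 30 tested B cell transcription factors, 4 fell (13.3%) and 1 rose (3.33%). EBF1, which specifies the lineage, had 184.0 and 206.8 against 44.1 and 17.2, FLI1 804.8 and 1011 against 299.8 and 141.7, and BCL11A 183.9 and 272.2 against 97.3 and 70.5. ID2, an inhibitor of such factors, was the one that rose, from 261.4 and 185.3 to 518.9 and 906.3 (log2 1.63 ± 0.27, adjusted p = 0.00923). Away from the 8 shifted chromosomes 2 of 21 tested factors fell, and the median of the factor list was -0.12 in place of -0.52. The receptor list had 7 falls among 31 genes there, with a median of -0.29. Of 27 tested genes of immunoglobulin and its diversification, 4 fell (14.8%), VPREB3 among them, and 2 rose (7.41%). IGLL1 was one of the 2 rises, from 1354 and 1214 in wild type to 3809 and 2350 in K11-5 (limma, adjusted p = 0.00758). For the receptor genes that fell, the first K11-5 array lay at a median of -2.06 from wild type and the second at -2.99, and for the factors at -1.84 and -3.01. In RNA from a whole culture, fewer cells that express a gene and less RNA per cell cannot be told apart. The receptor list had 6, 2, 7 and 5 falls, and the factor list 3, 0, 6 and 2, without wild type replicate 1, wild type replicate 2, K11-5 replicate 1 and K11-5 replicate 2. Of the 8 receptor genes that fell, 5 were also lower in K11-5 than in K11.

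Other immune genes were counted in further lists. Of 36 tested genes on the list of lymphocyte surface receptors, 6 fell (16.7%) and 1 rose (2.78%), against 3.66% and 3.59% of all genes. CD200, TNFSF13B, which encodes the survival factor BAFF, and SLAMF1 were among the falls. Of 27 tested genes on the list of cytokines and chemokines, 4 fell (14.8%) and none rose. IL16 went from 231.3 and 350.4 to 25.0 and 27.9, and HGF fell at least 4.88-fold. The others were TNFSF13B, also on the receptor list, and LITAF, described above as a late endosome protein. Of 40 tested genes of the NF-kB and Toll-like receptor pathways, 2 fell (5.0%, near the 3.66% of all genes), TRAF5, an adaptor of receptors of the TNF family, by 2.19, and TLR7, a sensor of RNA, by 1.65. Both were also lower in K11-5 than in K11, and neither passed without wild type replicate 2 or without K11-5 replicate 2. Without wild type replicate 2 the receptor and cytokine lists each had 2 falls, and without K11-5 replicate 2 each had 3.

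Of 64 tested DNA replication genes, 9 fell (14.1%) and 2 rose (3.13%), against 3.66% and 3.59% of all genes. Of the 9 falls, 6 lay on chromosomes 2 and 10. Away from the 8 shifted chromosomes 3 of 46 fell and 2 rose, with a median of -0.04. E2F5 and CDK6, regulators of entry into S phase, had 906.0 and 1028 against 365.7 and 337.5, and 363.8 and 426.5 against 138.1 and 89.2. CCNE2, a cyclin that fires S phase, had 232.2 and 179.1 in K11-5 against 461.8 and 524.9 in wild type, and it was also below the 755.1 and 555.3 of the K11 line, with adjusted p = 0.00471. ORC1 and RFC5, of the origin complex and the clamp loader, fell by 1.06 and 0.89, RRM2, the small subunit of ribonucleotide reductase, rose by 0.86, and E2F7, a repressor, by 1.36. The falls numbered 3, 0, 6 and 3 without wild type replicate 1, wild type replicate 2, K11-5 replicate 1 and K11-5 replicate 2. In mitosis 2 of 71 genes fell and 2 rose, and in DNA repair 2 of 72 fell and 3 rose, shares near the background.

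Stress and metabolic genes moved in both directions. Among 48 tested apoptosis genes, 6 rose (12.5%) and 4 fell (8.33%), against 3.59% and 3.66% of all genes. The cultures of all groups had received the caspase inhibitor, and caspase activity was not measured here. CASP8, the initiator caspase of death receptors, rose from 126.5 and 92.8 to 323.5 and 371.6, and BCL2L1, which protects mitochondria, fell by 1.70 ± 0.33. Of 30 tested p53 targets and cell cycle inhibitors, 4 rose (13.3%) and 1 fell (3.33%). The rises were GADD45A by 1.44, CCNG2 by 1.26, CDKN1B, the inhibitor p27, by 0.92 and CDKN2A by 0.71. JUN, a member of AP-1, rose by 2.27 ± 0.28 and also lay above K11. Of 43 tested folate and nucleotide genes, 6 rose (13.95%) and 1 fell (2.33%). The rises included PRPS2, which makes the ribose precursor of nucleotides, by 2.05, and MTHFD2, of the mitochondrial folate pathway, by 1.23. Among genes of oxidative stress and detoxification 5 of 58 rose (8.62%) and 4 fell (6.90%). NQO1, a quinone reductase, rose by 1.66 ± 0.15, whereas HMOX1, haem oxygenase, fell by 2.56 ± 0.40. Of 31 tested genes of cholesterol synthesis and sterol sensing, 6 fell (19.4%) and none rose. MVK, mevalonate kinase, had 515.1 and 562.4 against 185.5 and 207.1. Of 66 ribosomal protein genes limma called none, with 2 at an unadjusted p under 0.05, and their median was 0.00. The scaling turned some of these counts: on the deposited scale 3 apoptosis genes rose and 6 fell, 2 folate and nucleotide genes rose and 4 fell, and 4 detoxification genes rose and 5 fell. Leaving out wild type replicate 2 left no call among the apoptosis genes, no rise among the p53 targets, 1 rise among the folate genes and 1 fall among the cholesterol genes, while 4 detoxification genes still rose. Leaving out K11-5 replicate 2 left 1 rise and 1 fall of apoptosis genes, no p53 target, 2 rises of folate genes and 1 fall of cholesterol genes.

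**Figure D4:**
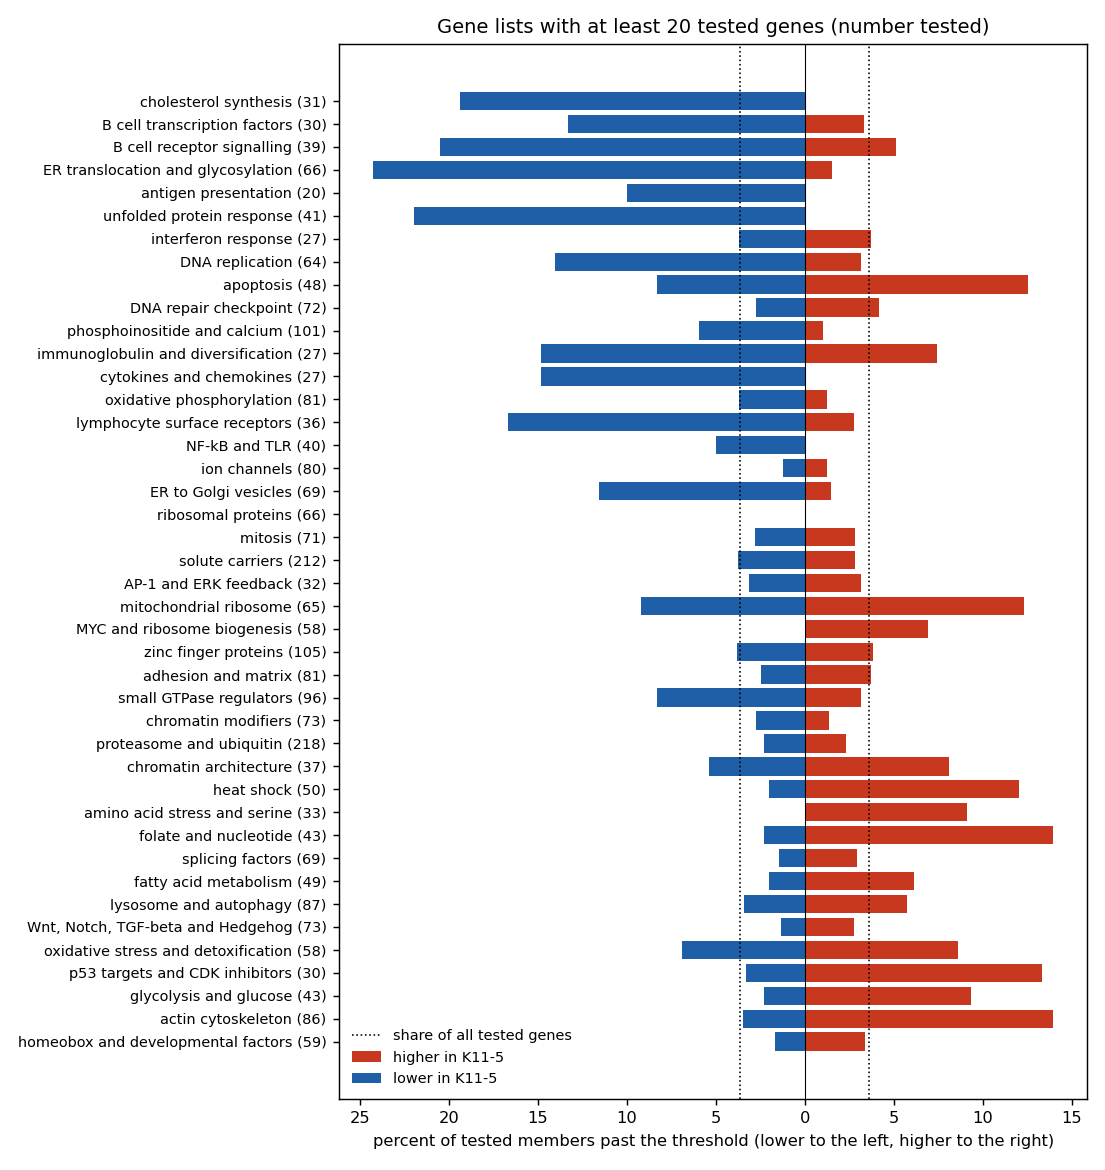
Share of the tested members of each list that were called higher (red, right) or lower (blue, left) in K11-5, in percent, for lists with at least 20 tested genes, ordered by their median log2 difference. The dotted lines mark the shares over all 9999 genes, 3.59% and 3.66%; the lists of the endoplasmic reticulum, cholesterol synthesis and B cell receptor signalling reach farthest to the left.

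Whole chromosomes were shifted in K11-5. Of the 29 chromosomes with at least 50 tested genes, 3 had a median log2 difference at or below -0.2, chromosomes 10 (-0.38), 2 (-0.36) and 24 (-0.26), and 5 had one at or above 0.2, chromosomes 22 (0.49), 11 (0.49), 25 (0.47), 9 (0.44) and 27 (0.43). The medians of the other 21 ran from -0.08 to 0.17. The shift spanned each chromosome rather than a part: in blocks of about 40 neighbouring genes, the 21 blocks of chromosome 2 had medians from -0.54 to -0.16, the 6 of chromosome 10 from -0.44 to -0.27, the 7 of chromosome 9 from 0.28 to 0.64 and the 6 of chromosome 11 from 0.36 to 0.61. On chromosome 9, 14.9% of 295 genes were called higher and 1.36% lower, and on chromosome 2, 12.3% of 863 were called lower and 1.97% higher. The 3 lowered chromosomes hold 12.5% of the tested genes and 141 falls, or 38.5% of them, and the 5 raised ones hold 8.95% of the genes and 123 rises, or 34.3%. These calls were smaller than the others: the median fall was -1.05 there and -1.45 elsewhere, and the median rise 0.97 and 1.501. Away from these 8 chromosomes, 215 of 7850 genes rose (2.74%) and 214 fell (2.73%).

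The K11 arrays stood near the K11-5 arrays on most of these chromosomes, with medians of 0.48 and 0.49 on chromosome 9 and -0.40 and -0.50 on chromosome 10. Chromosome 27 was different in value, at 0.36 and 0.47 for K11-5 against 0.10 and 0.06 for K11. The 2 K11-5 arrays parted on chromosome 21, at 0.06 and 0.34, and on chromosome 6, at 0.06 and 0.22; the 4 blocks of chromosome 21 lay at 0.03 to 0.07 in the first array and 0.22 to 0.45 in the second. No test was made of these medians. The mitochondrial ribosome, whose genes are scattered over the genome, was listed after the values were seen, so it is no independent test of position. Of its 65 tested genes, 8 rose and 6 fell. On raised chromosomes lay 6 of the rises and on lowered ones 4 of the falls, against 34.3% of rises and 38.5% of falls over all genes. Among them were MRPL44 and MRPL47 of chromosome 9, up by 0.92 and 1.86, and MRPL53 of chromosome 2, down by 1.07. On the deposited scale 1 rose and 7 fell. At most 1 of these rises and 1 of these falls passed when any wild type or K11-5 array was left out.

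**Figure D5:**
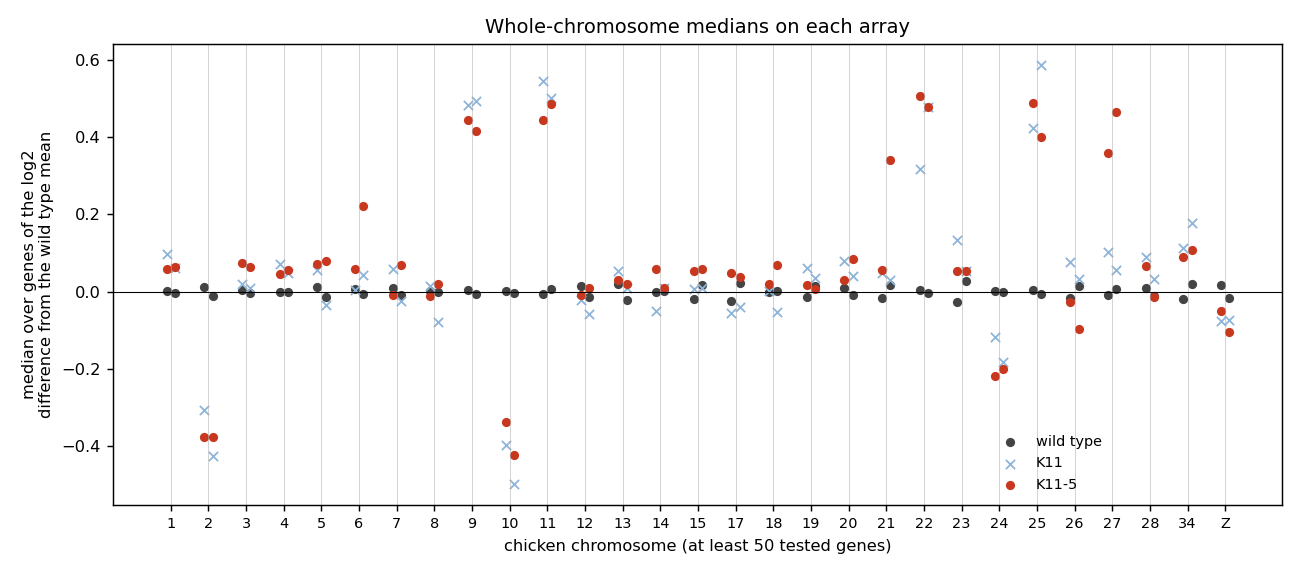
Median over tested genes of the log2 difference from the wild type mean, for each chromosome with at least 50 tested genes and each array; dark circles are wild type, red circles K11-5 and blue crosses K11. Chromosomes 2, 10 and 24 lie below 0 and 9, 11, 22, 25 and 27 above 0 in both K11-5 arrays, and the 2 red circles part on chromosomes 6 and 21.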

How the data were processed

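Each array's total RNA was labelled by a one-cycle protocol and read as 1 intensity per probe set, per the labels' protocols. The deposited intensities are linear values from GCOS, the Affymetrix operating software, per the submitters' processing notes; the sources used here name no version, algorithm or scaling. Because trimmed means differed between arrays, the intensities were quantile normalized over 38382 probe sets and log2-transformed after adding 2. Probe sets under the 40th percentile of mean intensity (7.05) were not tested, which left 23029. A group-means model over all 6 arrays was fitted with limma 3.58.1 in R 4.3.3, with an intensity trend, 3 residual degrees of freedom and Benjamini-Hochberg adjustment over all tested probe sets (threshold 0.05). Summaries used Python 3.11.15 and pandas 2.3.3. The model was tested on simulated data.

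Gene names came from GEO's platform annotation: 27168 probe sets had 1 symbol, 177 several and 11037 none. Named genes are the linker histones, the 30 largest rises and 30 largest falls with 1 usable symbol, called, with K11-5 and wild type arrays that did not overlap and a brighter group at or above the median signal of tested probe sets (the probe set of smallest p), and up to 10 members of smallest p in each list (the brightest probe set). Other genes named were chosen after their values were seen. The members and lists were chosen with earlier results of these data known, and 4 lists were added after the values were seen. Same-numbered replicates of different groups had correlations of deviations from -0.04 to 0.06, so the numbers were not taken to pair arrays. The number of arrays limits the precision. Other scalings, pseudocounts, filters, priors and sets of arrays were tried as alternatives. Chromosomes and the order of neighbouring genes came from RefSeq gene positions, to which 26853 probe sets were matched. Sequences were not used here.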

Additional observations from a re-analysis of the deposited data

Results flagged for a closer look

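Probe sets for reporter sequences, which took no part in the comparison, were bright in the H1-deficient lines. Of 57 reporter probe sets, 5 exceeded background in each K11-5 array while neither wild type array did, and 1 showed the reverse. Their mean deposited intensities in K11-5 were 2557 for reporter 1, 1546 for reporter 2, 937 for reporter 3, 293 for reporter 4 and 169 for reporter 5, and their wild type values were at most 10.0. All 5 were also bright in K11.

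The 30 largest rises and 30 largest falls were chosen on the same K11-5 arrays that enter the test of K11-5 against K11. Counts from that test therefore cannot be read against the 2.98% of all tested probe sets that passed it. Of these genes, 17 had a change in K11-5 that differed from that in K11 by the test of the difference itself (limma, adjusted p under 0.05). Of those that rose, the log2 difference of K11-5 over K11 was 4.41 for AKR1B10, 4.54 for PPDPF, 4.70 for HSPB9, 3.11 for NFIB, 3.55 for CHIR-B6, 3.91 for K123, 2.50 for RAB36, 2.58 for CHIR-B3 and 2.73 for CAPN3. Of those that fell, it was -2.01 for HINTW, -5.30 for VPREB3, -4.40 for BTLA, -3.97 for CD72, -4.42 for CD79B, -3.29 for THSD7A, -5.02 for RASGRP3 and -2.49 for BLB1. In K11 itself RASGRP3 and CD79B did not differ from wild type beyond the threshold (adjusted p = 0.1004 and 0.962).

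Some of these sizes rest on signals near or below background. The K11 arrays lay at 6.50 and 17.8 for HINTW, 10.0 and 0.581 for K123, 9.57 and 3.96 for AKR1B10, 9.18 and 11.4 for NFIB and 9.50 and 2.76 for CHIR-B6, so no fold between the 2 lines is measured there. In HINTW the K11-5 arrays were below background as well. THSD7A had 2 further tested probe sets that did not differ between K11-5 and wild type beyond the threshold (adjusted p = 0.151 and 0.374).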

How the results depend on the processing

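The counts of 606 higher and 670 lower probe sets moved with the processing. The largest move came from a prior variance with no intensity trend, which left 6 and 12, of which 16 were among the original calls. The deposited scale gave 308 and 823 and median centring 444 and 1160, with 27.2% and 27.7% of calls higher and a median shift of -0.12. A fit to the 4 arrays of wild type and K11-5 gave 1010 and 1066. Leaving out 1 array gave 94 to 981 higher and 58 to 1003 lower, the lowest without wild type replicate 2 and the highest without a K11 array. The replicate block gave 622 and 634. A pseudocount of 16, no filter, a 60th percentile filter and a robust prior gave 453 to 686 higher and 502 to 756 lower. A log2 difference does not depend on the filter or the prior, so those settings could not turn a direction. None of the 302 named genes changed direction under these settings. They were called in the main fit, which all but fixed their direction in advance, so this is no test of it. Without the trend 290 lost their call, and most also lost it without wild type replicate 2. The cause was not tested. With 2 arrays a group, changes in dim probe sets rest on signals near background.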

Other observations

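Genes outside the lists and not named above for the size of their change, chosen after their values were seen, included further lymphocyte genes that fell. HVCN1, a proton channel abundant in B cells, had 81.55 and 7.75 in K11-5 against 436.8 and 754.1 in wild type and 719.1 and 1160 for the K11 line, a log2 fall of 4.34 ± 0.75 (limma, adjusted p = 0.0104), and it was also lower than in K11 (adjusted p = 0.0103). CRIP1, a LIM domain protein, had 901.9 and 1132 in wild type and 175.7 and 150.6 in K11-5, a fall of 2.62 ± 0.18, with K11 at 679.5 and 770.9. TPD52, a protein of vesicle traffic, fell by 3.09 on its brighter probe set, from 638.5 and 566.9 to 55.9 and 84.6, and was as low in K11, at 41.7 and 48.2.

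Among the rises, PMP22, a membrane protein of myelin, went from 7.37 and 13.3 to 92.2 and 100.5 on 1 probe set and from 17.0 and 9.27 to 149.6 and 91.0 on another. MND1, which acts with recombinases in meiosis, went from 16.2 and 22.6 to 120.8 and 154.8, a rise of 2.71 ± 0.31 (limma, adjusted p = 0.00153). Of 17 tested genes on the list of germline markers, limma called none, with 2 at an unadjusted p under 0.05. CYFIP1, of the complex that starts branched actin, had 181.4 and 210.0 in K11-5 against 62.9 and 27.2 in wild type and 66.7 and 44.6 for the K11 line, and it was also higher than in K11 (adjusted p = 0.0338).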
